A study of Mus musculus with 48 samples.

Results

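The genes described here encode proteins of the small (40S) subunit of the cytosolic ribosome. They were chosen by name, from a list of core 40S proteins sorted by their place in the subunit. The rule uses no measured value, but it was set with earlier results of these data known. The list holds 28 genes of the 50600 in the count tables, 12 for proteins of the head of the subunit and 16 for proteins of its body and platform. It does not hold every 40S protein, so the sums, shares and ratios below cover the listed genes only. All 28 passed the filter on low counts and were among the 13889 genes tested.

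The measurements come from mPDAC cells, a mouse pancreatic ductal adenocarcinoma line. Non-treated cultures (NT, cultures 1, 2 and 4) were compared with cultures exposed for 48 h to 50 µM N6L, a pseudopeptide that binds and antagonises nucleolin (N6L, cultures 1, 2 and 3). The labels give the same background for every sample, FVB/N x C57BL6, and the same age of the source animals, 8-week-old, and the cells are 1 line, so the replicates are cultures and not animals. Each culture gave a cytoplasmic library and a polysomal library from the same lysate, in which the polysomes were taken from a sucrose gradient, and the 12 libraries of polyadenylated RNA were each deposited as 4 technical replicates, which were summed here. The 4 groups, NT cytoplasm, N6L cytoplasm, NT polysomes and N6L polysomes, hold 3 cultures each.

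The 40S subunit binds the mRNA and checks its codons against the tRNAs, while the 60S subunit joins the amino acids. Ribosomal protein mRNAs are among the most abundant mRNAs of a growing cell, and most of them start with a C followed by a run of pyrimidines, the 5′TOP motif, through which mTOR signalling is known to control how many ribosomes they carry. Nucleolin is an abundant nucleolar protein that takes part in the making of ribosomes, and the study asked which mRNAs change their place on polysomes when it is antagonised.

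The start of the transcript is shown first because this pyrimidine run is the sequence for which these mRNAs are known. RefSeq promoter sequences (GRCm38.p6) were used for 24 of the 28 genes. The 80 bases from 30 before to 50 after the annotated start were searched on the transcribed strand. The search took the longest stretch of only C and T that begins with C. A run of at least 8 bases was present for 17 of the 24 genes (70.8%), against 26.0% of the 27025 genes in the same table. This counts runs anywhere in the window. The longest run began within 10 bases of the annotated start for only 8 of the 24 genes. The median longest run was 10 bases for the ribosomal protein genes and 6 for all genes. In the 30-base windows below, which all read 5′ to 3′, the capitals mark the run. In the first 5, for Fau (chr19:6057937-6057966, plus strand), Rps10 (chr17:27635226-27635255, minus strand), Rps18 (chr17:33955647-33955676, minus strand), Rps27 (chr3:90213631-90213660, minus strand) and Rps6 (chr4:86857349-86857378, minus strand), the run begins at most 3 bases before the annotated start.
Fau: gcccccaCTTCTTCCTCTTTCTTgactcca
Rps10: cgcgcacgCCCCTTCCTTTCCagcctccgc
Rps18: tcacttccgCTCTCTCTTCCacaggaggcc
Rps27: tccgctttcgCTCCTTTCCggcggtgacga
Rps6: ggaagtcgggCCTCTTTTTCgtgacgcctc
In the next 3, shown because these genes are described below with some of the smaller cytoplasmic differences, for Rps3 (chr7:99483673-99483702, minus strand), Rps3a1 (chr3:86142623-86142652, minus strand) and Rps4x (chrX:102189347-102189376, minus strand), the longest run in the window is 5 or 6 bases.
Rps3: gcggcgtcattgCTCCCgccctatatacct
Rps3a1: acgtagacggcgCTCCCCgcccggctcgcg
Rps4x: gcgcgcgcgcagCCTCCgaccctaatttct
These matches describe letters near annotated starts only, and a short run does not mean that an mRNA lacks a 5′TOP motif. The study itself used the motif of Rps3 in a luciferase reporter. The longest run was also short for Rps28, Rpsa, Rps13 and Rps16 (3, 6, 6 and 5 bases). Their cytoplasmic log2 differences, described below, were -0.94, -0.91, -0.89 and -0.85. Rps6, with a run of 10 bases, had a smaller one of -0.79. Rps20, Rps27a and Rps29 had no entry. Rps14 was not searched, because member entries on its chromosome, 18, were left out. The 27025 genes used for comparison include that chromosome.

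Library totals lay between 19519911 and 44972333 counts, and the 4 technical replicates of a library gave a chi-square of 1.02 to 1.04 times its degrees of freedom, close to pure counting error. Of 7 ductal epithelial markers, which include keratins and adhesion genes, 6 had a mean of at least 1 CPM. The 7 together had a summed level of 7016 to 9020 CPM in NT and 7079 to 9662 CPM in N6L libraries. The values of single markers are not reported here. The summed level was 33.2 to 52.2 CPM in NT and 30.1 to 76.0 CPM in N6L libraries for 5 acinar markers (Pnlip and Cpa1 were at 0), and at most 0.891 CPM for 5 fibroblast markers (Lum at 0), 2.43 CPM for 4 immune markers and 1.13 CPM for 3 endothelial markers. All levels below are in CPM, counts relative to the TMM-scaled library total, unless given as percent, so each is relative to the other mRNAs of its library, and a lower value cannot be told apart from more of the other mRNAs. The share of counts from mitochondrial genes was 0.752% ± 0.266 (SD, n = 3) in NT cytoplasm and 0.184% ± 0.0604 (SD, n = 3) in N6L cytoplasm, and its part in the cytoplasmic differences below was not tested.

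The 28 mRNAs took a smaller share of the cytoplasmic counts in N6L cultures. They held 4.25%, 4.09% and 4.88% of the counts in NT cytoplasm and 2.76%, 2.40% and 2.54% in N6L cytoplasm. In polysomes they held 4.81%, 4.34% and 5.30% in NT cultures and 3.89%, 3.81% and 4.64% in N6L cultures. The cytoplasmic groups did not overlap, and the polysomal groups did, because N6L culture 3 lay above NT culture 2.

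**Figure D1:**
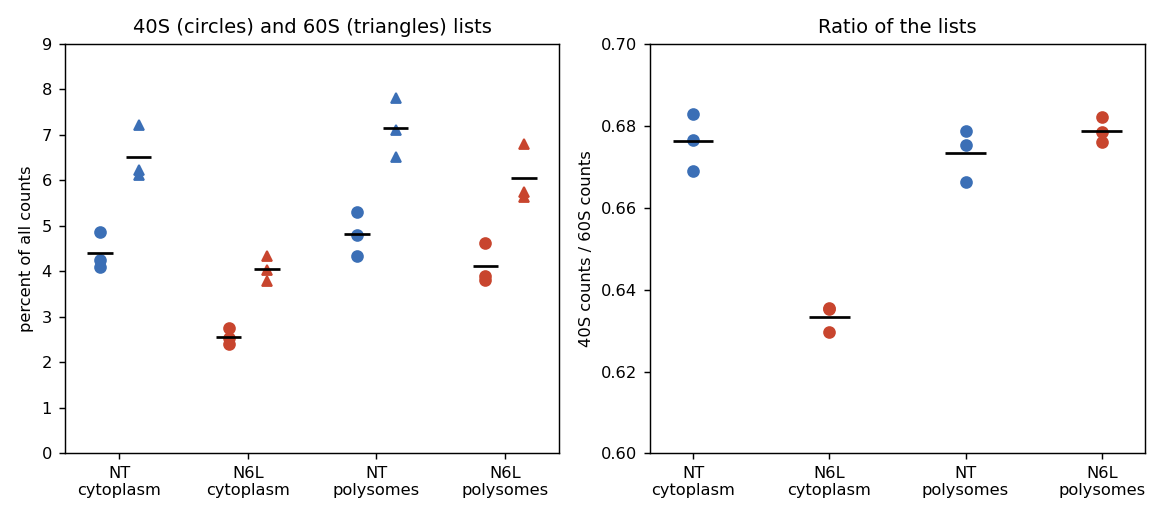
Percent of all counts of each library that came from the 28 small-subunit genes (circles) and from 47 large-subunit genes (triangles), left, and the ratio of both sums, right (the axis starts at 0.60), with 1 point per culture and a bar at the mean of 3 cultures. The small-subunit share is lowest in N6L cytoplasm, 2.40% to 2.76%, and the ratio is lowest there too, 0.630 to 0.635.

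The 47 genes listed for the large (60S) subunit moved by nearly the same amount. The ratio of small-subunit to large-subunit counts was 0.683, 0.669 and 0.677 in NT cytoplasm and 0.635, 0.635 and 0.630 in N6L cytoplasm. It was 0.675, 0.666 and 0.679 in NT polysomes and 0.678, 0.676 and 0.682 in N6L polysomes. The ratio was thus lower in every N6L cytoplasmic library than in any of the other 9 libraries.

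Per kilobase of coding sequence, a scale chosen to set the genes beside one another, the mean level in NT cytoplasm spanned 5.54-fold. The span and the order depend on this choice of length. The coding part is 168 of 390 transcript bases for Rps29 and 879 of 998 for Rps2. Rps12, a head protein, stood highest at 8495 ± 1204 CPM per kb (SD, n = 3), followed by Rps29, a small zinc-binding head protein (8065 ± 2260), and Rps21 of the body (6907 ± 1857). Rps16 stood lowest (1533 ± 363), below Rps3a1 (1699 ± 92.8) and Rps7 (1835 ± 210). In 0 of the 27 neighbouring pairs of this order did the means differ by more than the larger SD. The order was largely kept across groups, with a Spearman correlation over the 28 genes of 0.95 between NT and N6L cytoplasm and of 0.96 between NT cytoplasm and NT polysomes. Genes share their libraries and are not independent.

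**Figure D2:**
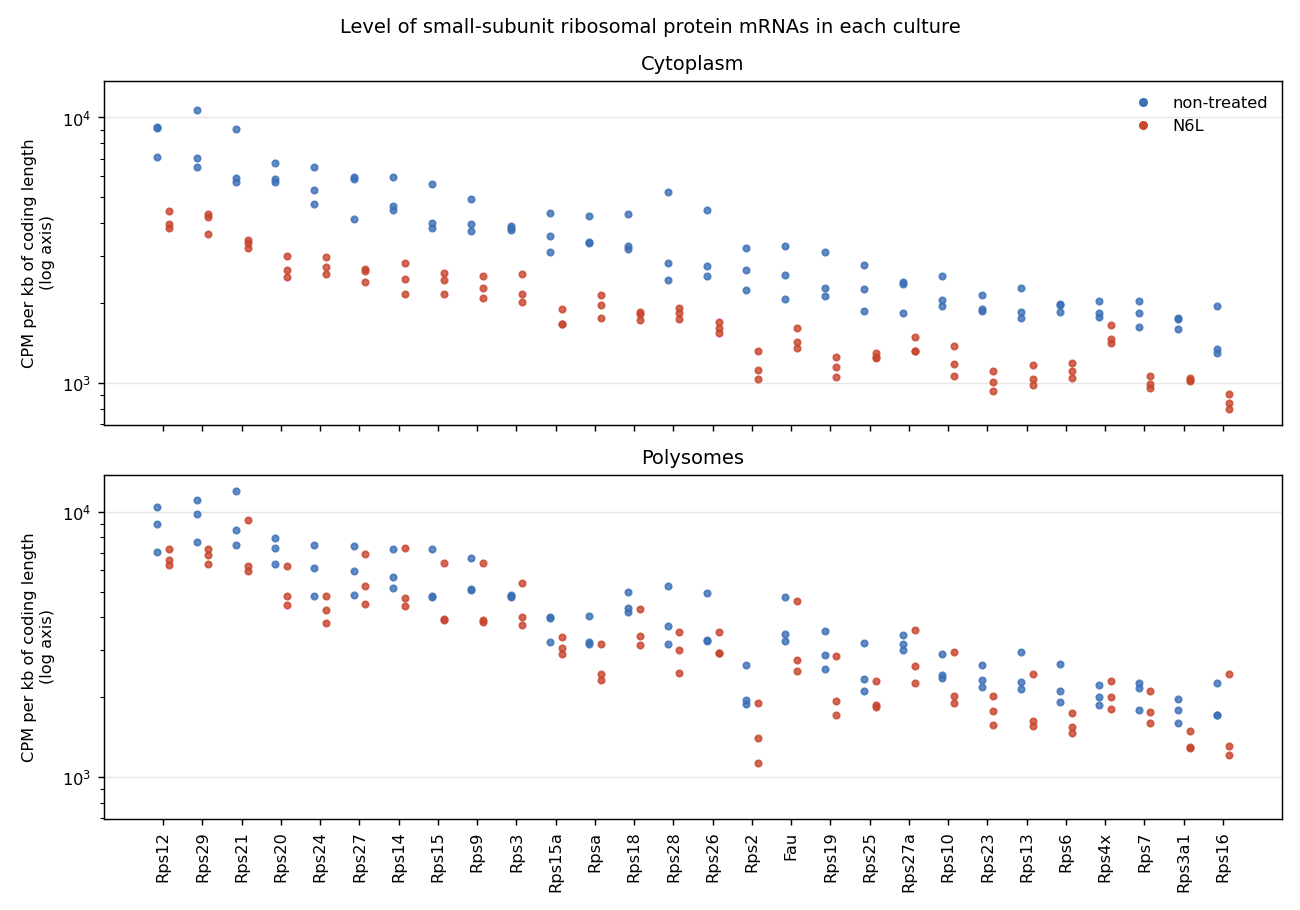
Level of each of the 28 mRNAs in CPM per kb of coding length (log axis), ordered by the NT cytoplasmic mean, with 1 point per culture for cytoplasm (top) and polysomes (bottom). In the cytoplasm the NT and N6L points separate for all 28 genes, with the narrowest gap for Rps4x, while in polysomes they overlap for 22 genes.

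Nearly all of these mRNAs were lower in the cytoplasm of N6L cultures. By the quasi-likelihood test of edgeR, adjusted over all genes by Benjamini-Hochberg (FDR), 27 of 28 were lower (FDR under 0.05) and 0 were higher, against 13.8% of all tested genes called lower. All 28 had N6L values below every NT value, which held for 25.6% of all tested genes. The median log2 difference was -0.92, against 0.04 for all genes. The 12 head proteins (12 lower, median -0.92) and the 16 body and platform proteins (15 lower, median -0.93) gave nearly the same values.

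Rps2 (ENSMUSG00000044533, chr17:24718116-24721929, GRCm38), a protein at the channel through which mRNA enters the subunit, had the largest difference. It stood at 2335, 1977 and 2833 CPM in NT and at 1164, 912 and 987 CPM in N6L cytoplasm. The highest N6L culture was well below the lowest NT culture, with a log2 difference of -1.22 (SE 0.21, edgeR FDR = 0.00217). Rps20, a head protein, came next, with 2095, 2034 and 2409 CPM in NT and 1073, 893 and 949 CPM in N6L cytoplasm. Its log2 difference was -1.17 (SE 0.16, edgeR FDR = 0.000949), and here too the groups stood far apart. Rps19, the head protein whose human gene is most often mutated in Diamond-Blackfan anaemia, had 928, 991 and 1354 CPM in NT and 546, 457 and 502 CPM in N6L cytoplasm, a log2 difference of -1.12 (SE 0.21, edgeR FDR = 0.00308). NT culture 4 was the high one of its group.

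At the other end stood Rps4x (ENSMUSG00000031320, chrX:102184941-102189394, GRCm38), the X-linked body protein and the 1 member that did not pass the test. Its levels were 1454, 1604 and 1396 CPM in NT and 1307, 1114 and 1161 CPM in N6L cytoplasm. The groups did not overlap but came close, with a log2 difference of -0.32 (SE 0.14, edgeR FDR = 0.106), and DESeq2 gave an adjusted p of 0.0456. On the log2 scale Rps4x stood at 0.01, 0.38 and -0.09 from the median of the 28 mRNAs in NT cytoplasm and at 0.76, 0.65 and 0.61 above it in N6L cytoplasm. In the cytoplasm Rps4x was thus near the middle of the list in NT cultures 1 and 4 and well above it in every N6L culture. Relative to the median in polysomes it stood at 0.16, 0.08 and -0.23 in NT and at 0.65, 0.47 and -0.11 in N6L cultures.

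Rps27a, which is made as a fusion with ubiquitin, had 861, 1108 and 1126 CPM in NT and 698, 620 and 618 CPM in N6L cytoplasm. It fell by 0.68 on the log2 scale (SE 0.18, edgeR FDR = 0.0133). Rps3a1 of the body had 1396, 1261 and 1379 CPM in NT and 804, 824 and 816 CPM in N6L cytoplasm, and fell by 0.72 (SE 0.13, edgeR FDR = 0.00283). The N6L cultures of Rps3a1 were very close to one another.

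Of the proteins followed most often in signalling work, Rps6, the body protein that S6 kinases phosphorylate, had 1487, 1379 and 1470 CPM in NT and 892, 781 and 833 CPM in N6L cytoplasm. Rps6 fell by 0.79 (SE 0.15, edgeR FDR = 0.00321). Rps3, at the mRNA entry site of the head, had 2756, 2802 and 2853 CPM in NT and 1880, 1467 and 1577 CPM in N6L cytoplasm, and fell by 0.77 (SE 0.16, edgeR FDR = 0.00441). Rpsa, also known as the laminin receptor precursor, had 3013, 2973 and 3762 CPM in NT and 1896, 1551 and 1742 CPM in N6L cytoplasm, and fell by 0.91 (SE 0.17, edgeR FDR = 0.00295). For all 3 the groups were clearly separate.

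The other 19 members lay between -1.08 for Rps15a and -0.85 for Fau, Rps10 and Rps16, and all passed the test, with FDRs from 0.00114 for Rps15a to 0.0211 for Rps16. They include Rps14 and Rps26 of the platform (log2 differences of -1.01 for both) and Rps12 and Rps29 of the head (-1.05 and -0.99). The 17 genes with a pyrimidine run of at least 8 bases in the window had a median of -1.0 (range -1.22 to -0.79) and the 7 without one a median of -0.85 (range -0.94 to -0.32). These are descriptions over genes of 1 family, with no test.

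**Figure D3:**
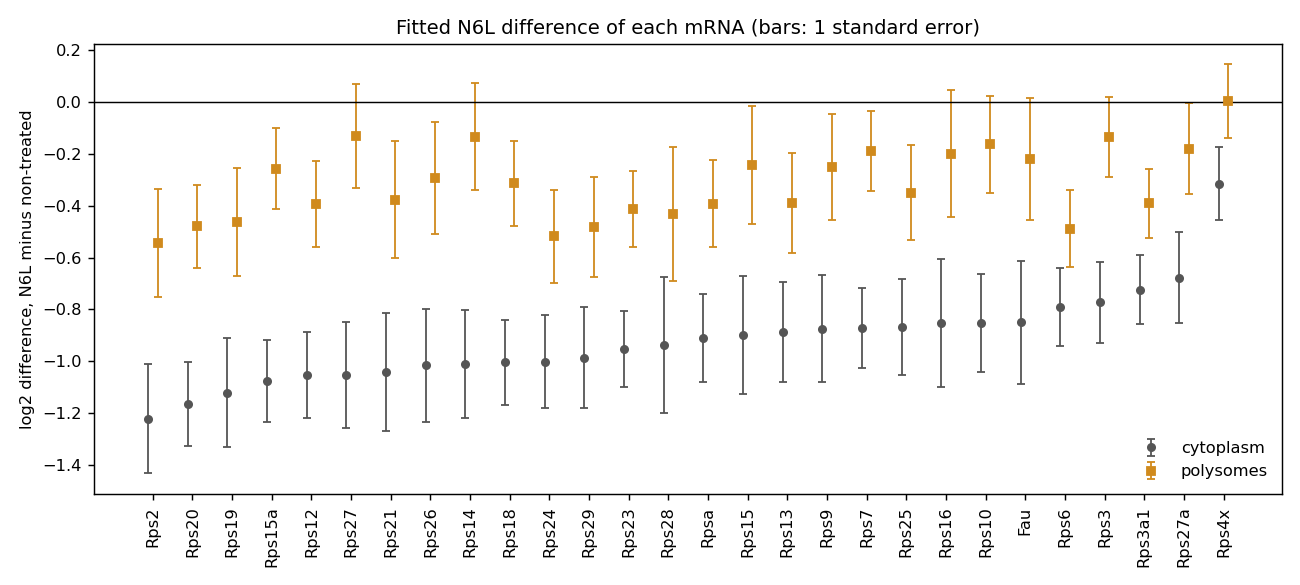
Fitted log2 difference between N6L and NT for each of the 28 mRNAs in cytoplasm (circles) and polysomes (squares), with bars of 1 standard error, ordered by the cytoplasmic value. The cytoplasmic values run from -1.22 for Rps2 to -0.32 for Rps4x, and the polysomal ones from -0.55 to 0.00 for the same genes.

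An offset for coding length and GC content made the cytoplasmic differences smaller, with a median of -0.58 and 24 of 28 lower (18.6% of all genes in that fit), and Rps28 and Rps29 moved from -0.94 and -0.99 to -0.26 and -0.27. Log2 coding length and the log2 difference correlated by r = 0.39 (Spearman 0.48) over the 28 genes, whose coding lengths run from 168 to 885 bases. The offset corrects for length and GC content together, and the part of each was not tested.

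The large-subunit list showed the same direction, with 45 of 46 tested genes lower and a median of -0.90. Of 24 factors that mature the small subunit in the nucleolus and cytoplasm, 6 were lower and 0 higher, with a median of -0.02, from Tbl3 (-0.66) to Ddx52 (0.38). Of 5 chaperones that carry single small-subunit proteins, 3 were lower, with a median of -0.59, from Tsr2 (-0.66) to Pdcd2l (-0.44). Of 11 enzymes and factors that modify the subunit or sit on it, 2 were lower and 0 higher (median -0.03), from Mettl5 (-0.57) to Rps6ka3 (0.46).

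In polysomes the same comparison gave smaller differences. By edgeR 0 of 28 members passed the test, against 3.66% of all tested genes called lower, while 10 had an unadjusted p under 0.05 (26.5% of all genes) and DESeq2 called 5 lower (6.55% of all genes). Of the 28, 27 had a log2 difference below 0 (49.9% of all genes), with a median of -0.33 (0.00 for all genes) and a smallest FDR of 0.0528, for Rps6. Groups did not overlap, with N6L lower, for 6 members (Rps3a1, Rps6, Rps20, Rps23, Rps24 and Rps29), against 11.9% of all genes.

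Rps2 had 1710, 1651 and 2325 CPM in NT and 996, 1235 and 1665 CPM in N6L polysomes, a log2 difference of -0.55 (SE 0.21, edgeR FDR = 0.111). N6L culture 3 reached the lower NT cultures. Rps24, a body protein, had 2417, 1895 and 2931 CPM in NT and 1675, 1498 and 1883 CPM in N6L polysomes, a log2 difference of -0.52 (SE 0.18, edgeR FDR = 0.0810). Its groups lay next to each other, the highest N6L culture just under the lowest NT culture.

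Rps6 had 1577, 1428 and 1993 CPM in NT and 1158, 1098 and 1305 CPM in N6L polysomes, a log2 difference of -0.49 (SE 0.15, edgeR FDR = 0.0528). Every N6L value was below every NT value. Rpsa had 2845, 2801 and 3587 CPM in NT and 2058, 2173 and 2801 CPM in N6L polysomes (-0.39, SE 0.17, edgeR FDR = 0.151), so that the groups met at 1 value. Rps3 had 3499, 3480 and 3527 CPM in NT and 2934, 2715 and 3921 CPM in N6L polysomes (-0.13, SE 0.16, edgeR FDR = 0.621), with N6L culture 3 above all NT cultures.

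Rps4x stood at 1748, 1475 and 1587 CPM in NT and at 1812, 1586 and 1422 CPM in N6L polysomes, a log2 difference of 0.00 (SE 0.14, edgeR FDR = 0.993). Rps27, a small zinc-binding protein, had 1499, 1223 and 1876 CPM in NT and 1128, 1317 and 1751 CPM in N6L polysomes (-0.13, SE 0.20, edgeR FDR = 0.720). Both pairs of groups were interleaved.

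Single cultures moved the polysomal values. NT culture 4 gave the highest NT polysomal value for 26 of 28 members and N6L culture 3 the highest N6L value for 26 of 28. Without NT culture 4 the median log2 difference was -0.17 and without N6L culture 3 it was -0.51, with 0 and 3 members lower by edgeR, against 1.05% and 2.91% of all genes. With the offset for coding length and GC content, 4 of 28 were lower, close to the 11.8% of all genes in that fit, and the median was -0.23. The other lists were also mostly below 0 in polysomes, with 45 of 46 large-subunit genes (1 lower, median -0.33), 22 of 24 maturation factors (4 lower, median -0.31), 4 of 5 chaperones (1 lower, median -0.34) and 8 of 11 modifiers (1 lower, median -0.06).

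Polysome and cytoplasm were then compared within each treatment, by the share that each mRNA takes of its library and not by amount. In NT cultures 0 of 28 members passed the edgeR test (0.209% of all genes did), and DESeq2 called 0 members. Here 2 had an unadjusted p under 0.05, against 13.4% of all genes, and 26 were above 0, against 53.7% of all genes, with a median log2 difference of 0.24. With the culture as a block, 11 had an unadjusted p under 0.05, against 24.7% of all genes, and 0 passed the test (smallest edgeR FDR = 0.0895). Values ran from -0.33 for Rps2 to 0.54 for Rps27a and Fau, both of which are translated as fusions with ubiquitin or a ubiquitin-like protein. Rps3, Rps9, Rps23 and Rps27a did not overlap between the fractions, 4 of 28 against 9.59% of all genes. With the offset for coding length and GC content the median was 0.03.

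In N6L cultures 26 of 28 members were higher in polysomes than in cytoplasm (edgeR FDR under 0.05), against 18.4% of all genes, with a median of 0.89 (0.03 for all genes). Fau had the largest log2 difference, 1.17 (SE 0.24, edgeR FDR = 0.00509). Rps14 (1.14), Rps27 (1.11) and Rps21 (1.10) followed. The fractions did not overlap for 27 members, against 28.4% of all genes. The members that did not pass were Rps2 (0.35, SE 0.21, edgeR FDR = 0.191) and Rpsa (0.44, SE 0.17, edgeR FDR = 0.0510). With the culture as a block 27 were higher, against 26.1% of all genes, and Rpsa passed (0.43, edgeR FDR = 0.0128).

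The count moved with 2 of the cultures and with the joint correction for length and GC content. Leaving out N6L culture 2 gave 17 members (median 0.94, 2.56% of all genes called higher), and leaving out N6L culture 3 gave 14 (median 0.72, 3.09% of all genes). With the offset for coding length and GC content it was 15 (9.32% of all genes), or 20 with the culture as a block (21.5% of all genes), with medians of 0.39 in both, and Rps2, Rps28 and Rps29 stood at -0.18, -0.05 and -0.06 without the block. Of the other lists, 42 of 46 large-subunit genes were higher (median 0.83), as were 3 of 5 chaperones (median 0.48), while of 24 maturation factors 3 were higher and 8 lower (median -0.32), and of 11 modifiers 2 were higher and 2 lower (median 0.21).

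**Figure D4:**
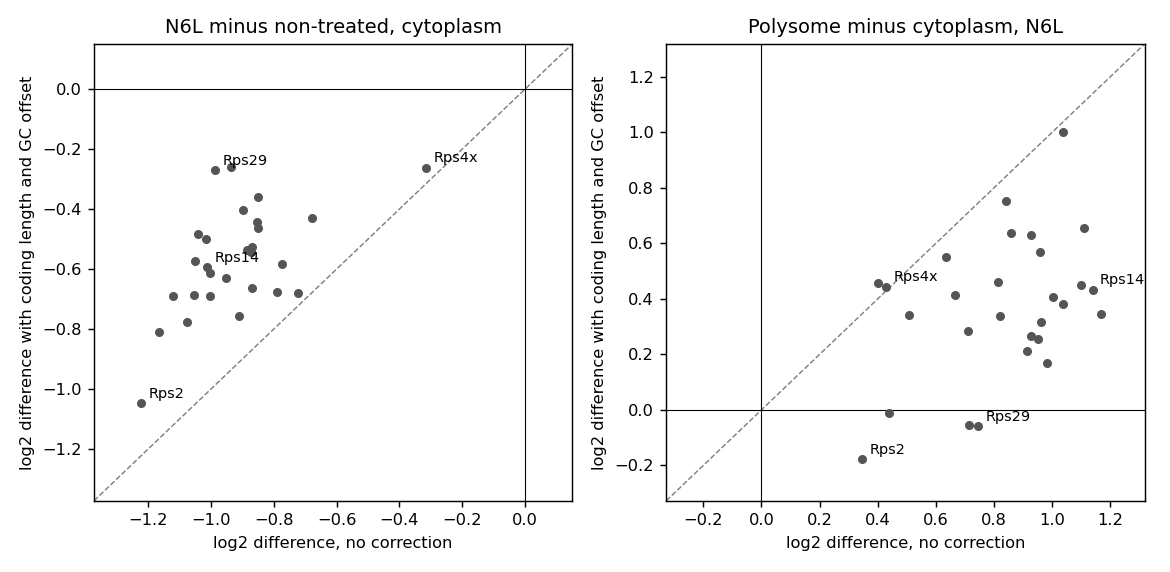
Log2 difference of each of the 28 mRNAs without correction (horizontal axis) against the value with an offset for coding length and GC content (vertical axis), for N6L minus NT in the cytoplasm (left) and for polysome minus cytoplasm in N6L cultures (right), with the line of equal values dashed. Cytoplasmic values stay below 0 for all 28 genes, and 4 genes, among them Rps2 and Rps29, lie below 0 on the right after the correction.

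The translational index is the difference between the N6L effects in polysomes and in cytoplasm. It asks whether an mRNA's share of the polysomal counts changed beyond its share of the cytoplasmic counts. The study reported a strong decrease in polysome peaks under N6L, so a higher index need not mean a larger amount on polysomes. No member passed the edgeR test, as 0.00% of all genes did, and DESeq2 also called 0. The index was above 0 for all 28 members, against 50.7% of all genes, with a median of 0.65 (0.56 for the large subunit, 0.01 for all genes). An unadjusted p under 0.05 was found for 15 members, against 7.73% of all genes, and for 25 once the fractions of each lysate were paired by a block for the culture, a fit in which 21.6% of all genes had one. The smallest FDR was 0.555, and 0.196 with the block. In a simulation the test recovered 23.0% of index changes of 1 on the log2 scale. Its genes were drawn from all those tested, with a median level of 24.2 CPM against 1214 CPM for the 28 mRNAs. Fractions of a culture were not paired in it. The recovery for these mRNAs was therefore not tested.

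The ratio of polysomal to cytoplasmic CPM was also taken within each culture. The median log2 ratio of the 28 mRNAs was 0.31, 0.20 and 0.20 in NT cultures 1, 2 and 4 and 0.63, 0.76 and 1.15 in N6L cultures 1, 2 and 3. Every N6L median was above every NT median. For 25 of 28 members the N6L ratios were above all NT ratios, against 15.3% of all genes, and the exceptions were Rps6, Rps27a and Rps28.

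**Figure D5:**
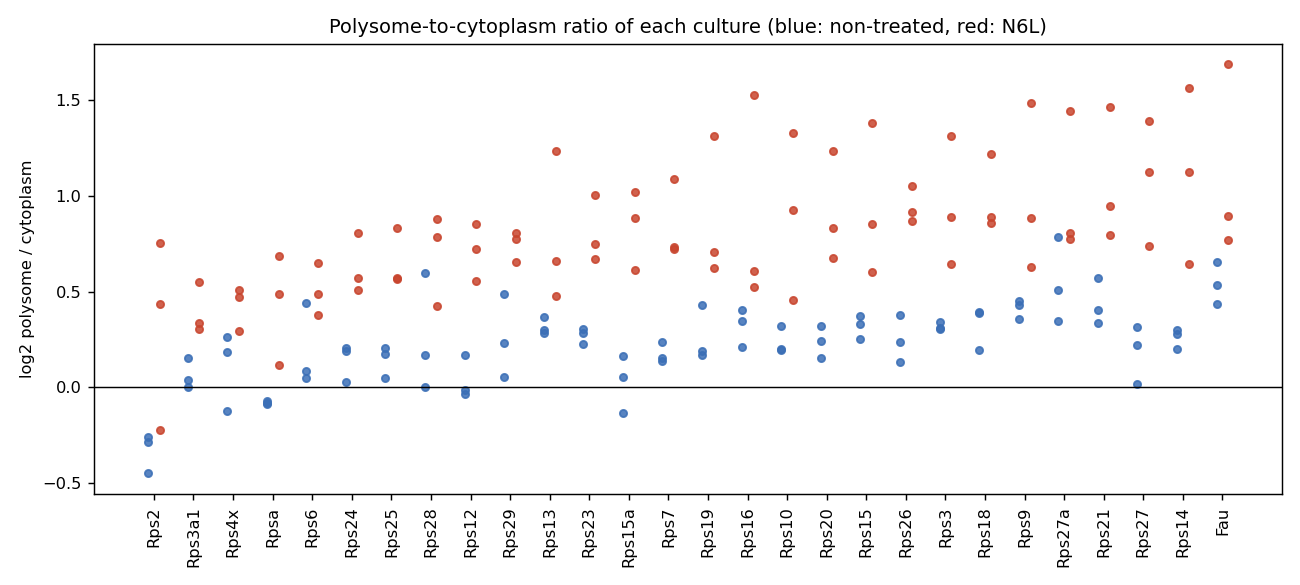
Log2 ratio of polysomal to cytoplasmic CPM of each of the 28 mRNAs, 1 point per culture (blue, NT; red, N6L), ordered by the N6L mean. The N6L points lie above the NT points except for Rps6, Rps27a and Rps28, and N6L culture 3 gives the highest ratio for 25 genes.

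Rps27 had the largest index. Its log2 ratios were 0.02, 0.22 and 0.32 in NT and 0.74, 1.13 and 1.39 in N6L cultures, for an index of 0.92 (SE 0.29, edgeR FDR = 0.555, unadjusted p = 0.00609). Rps14, a platform protein near the site where mRNA leaves, had 0.30, 0.20 and 0.28 in NT and 0.64, 1.12 and 1.56 in N6L cultures, for an index of 0.88 (SE 0.29, edgeR FDR = 0.555). In both the lowest N6L culture was above the highest NT culture.

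The smallest indices belonged to Rps6 and Rps4x. Rps6 had log2 ratios of 0.08, 0.05 and 0.44 in NT and 0.38, 0.49 and 0.65 in N6L cultures, for an index of 0.30 (SE 0.21, edgeR FDR = 0.567). NT culture 4 lay among the N6L cultures. Rps4x had 0.27, -0.12 and 0.19 in NT and 0.47, 0.51 and 0.29 in N6L cultures, for an index of 0.32 (SE 0.20, edgeR FDR = 0.557), with NT culture 1 just under N6L culture 3.

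Rps2 and Rpsa were the only members with negative ratios in all 3 NT cultures. Rps2 had -0.45, -0.26 and -0.28 in NT and -0.23, 0.44 and 0.76 in N6L cultures (index 0.68, SE 0.29, edgeR FDR = 0.555). Rpsa had -0.08, -0.09 and -0.07 in NT and 0.12, 0.49 and 0.69 in N6L cultures (index 0.52, SE 0.24, edgeR FDR = 0.555). The index of Rps3 was 0.64 (SE 0.22, edgeR FDR = 0.555), with ratios of 0.34, 0.31 and 0.31 in NT and 0.64, 0.89 and 1.31 in N6L cultures. The NT ratios of Rps3 were close together and the N6L ratios were spread widely.

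Without N6L culture 3 the median index was 0.43, and with the offset for coding length and GC content it was 0.35, with 27 of 28 members above 0. The 17 genes with a pyrimidine run of at least 8 bases in the window had a median index of 0.66 and the 7 without one a median of 0.50, a description with no test. Of the other lists, 45 of 46 large-subunit genes had an index above 0, as had 6 of 24 maturation factors (median -0.27), 4 of 5 chaperones (median 0.32) and 6 of 11 modifiers (median 0.03), and 0 of them passed the test. The cytoplasmic difference enters the index with the opposite sign, so the values of both are not independent of each other.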

How the data were processed

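Polyadenylated RNA from cytoplasm and polysomes of 3 non-treated and 3 N6L-treated mPDAC cultures was sequenced. The authors made the reads with bcl2fastq 2.18.0.12, used STAR for alignment to mm10 and HTSeq 0.5.3 for counting, and deposited raw counts. The sources used here do not give counting options, strand setting, annotation or the treatment of multiply mapped reads. Loci named as pseudogenes of a member (-ps) held at most 2.20% of its counts (Rps16), and reads of near-identical copies may be split between loci. Symbols, lengths and coordinates came from GENCODE vM21 (GRCm38), which held 50376 of 50600 identifiers. Technical replicates were summed. For 3 of them, from N6L cytoplasm, title and description name different cultures. The title was used.

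After filterByExpr and TMM, edgeR 4.0.16 (R 4.3.3) was run (glmQLFit, glmQLFTest, 4 group means, all 12 libraries, no block), with Benjamini-Hochberg adjustment over 13889 genes and a limit of 0.05. Log2 ratios per culture used a prior count of 2. DESeq2 1.42.0 was the alternative test. On simulated counts for the cytoplasmic comparison (13889 genes) edgeR recovered 54.0% of changes of 1 and 95.0% of changes of 2 on the log2 scale, with 4 false calls. For the index it recovered 23.0% and 78.0%, with 6 false calls. Totals of 19519911 counts or more left the spread between cultures as the limit of precision (common biological coefficient of variation 0.197).

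Both fractions of a culture share a lysate and are therefore pairs. As a check, the correlation between their residuals around the group means was 0.364 to 0.645 in the NT cultures and 0.0368 to 0.230 in the N6L cultures. Offsets came from regression splines (4 degrees of freedom) on length and GC content, fitted on genes that encode no ribosomal protein.

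Values per culture are given for the 3 largest and 3 smallest cytoplasmic differences, the 2 largest and 2 smallest polysomal differences and indices, and Rps3, Rps6 and Rpsa. Genes outside the list are named at the ends of the range of their list, and the range of the large-subunit list is not reported here. The members, the lists and this rule were chosen with earlier results of these data known. The labels call the replicates separate samples of a cell line, so p-values for N6L against NT measure the spread between cultures. For polysome against cytoplasm and for the index, the fit without a block treats both fractions of a lysate as independent. Only the values with the culture as a block take the pairs into account.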

Additional observations from a re-analysis of the deposited data

How the results depend on the processing

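Across the alternatives 264 of 300 counts and medians of the 28 members stayed within 1.5 times the count reported or, for medians, within 1 SD of the spread between cultures. Counts of 0 that stayed at 0 were scored as unchanged and are among these 264, so the figure overstates how stable the other values were. In the cytoplasm the median was -0.77 with library totals alone, a scaling that moved the median of all genes from 0.04 to 0.19, -0.49 with an offset for transcript length and GC content and -0.58 with coding length, an alternative chosen after seeing the data because the annotated transcripts of some members run far beyond their coding part. Leaving out 1 culture gave -0.99 to -0.80 and 23 to 27 members lower, against 5.22% to 13.4% of all genes. In polysomes 1 member was lower with RLE size factors, library totals alone, no filter or the culture number as a replicate block across treatments (numbers that only name cultures: deviations correlated by 0.228 and 0.0455 in cytoplasm and 0.296 and 0.0076 in polysomes), 5 with DESeq2, 3 with the transcript length offset and 4 with the coding length offset. The shares of all genes called lower in these fits were, in the same order, 3.92%, 2.25%, 2.65%, 3.77%, 6.55%, 12.6% and 11.8%. Leaving out 1 culture gave 0 to 3 members lower, against 0.121% to 4.93% of all genes, and medians of -0.51 to -0.17. For polysome against cytoplasm in NT cultures the median was -0.017 and -0.019 with the transcript length offset without and with the replicate block, with 1 member lower in both, and 0.033 with coding length (0.036 and 1 lower with the block). Of all genes, 0.482% and 2.56% were lower in these transcript length fits, and 5.31% with coding length and the block. Leaving out 1 culture gave medians of 0.20 to 0.26. In N6L cultures 10 members were higher and 1 lower (median 0.29) with the transcript length offset, 16 and 1 (median 0.29) with it and the block, and 15 with coding length (median 0.39, also 0.39 with the block). The shares of all genes in the same order were 9.08% higher and 7.03% lower, 18.3% and 14.5%, and 9.32% higher. Leaving out 1 culture gave 14 to 27 members higher, against 2.56% to 21.1% of all genes, and medians of 0.72 to 0.99. Rps2 then reversed to -0.38 (FDR 0.0433 by edgeR) and -0.38 (0.0187) with the transcript length offset without and with the block. Rps28 reversed to -0.054 and -0.069 and Rps29 to -0.058 and -0.085 with the coding length offset without and with the block. The culture as a block alone gave 27 higher (26.1% of all genes), Rpsa passing the test, and changed no other call by edgeR's FDR. For the index the median was 0.33 and 0.32 with the transcript length offset without and with the block, 0.35 and 0.35 with coding length, and 0.43 to 0.75 when 1 culture was left out. The cause of these shifts was not tested. Pseudogene counts, technical replicate a alone, the samples with conflicting labels and TMM without ribosomal protein genes moved no count or median beyond those limits.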
